A study of Mus musculus with 12 samples.

Results

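Adrenomedullin and intermedin are secreted peptides of the calcitonin family that relax blood vessels and act on neighbouring cells. Both signal through 1 receptor, the calcitonin receptor-like receptor, which reaches the cell surface only together with a receptor activity-modifying protein (RAMP). The RAMP it pairs with sets which peptide it binds best, and the complex signals mainly through the G protein Gs and cyclic AMP. The 6 genes described here are the ligands Adm (adrenomedullin) and Adm2 (intermedin, also called adrenomedullin 2), the receptor gene Calcrl, and the accessory genes Ramp1, Ramp2 and Ramp3. They were found by symbol among the 26271 loci of the authors' deposited gene table, and each symbol lies in 1 locus. The set was chosen from the 3 group values and the calls between groups of this same table, in which Adm2 stood out, so its values are a description and carry no test of their own.

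The cells were C2C12, 1 established line of mouse myoblasts that can fuse into muscle fibres. They spent 24 h in 1 of 3 media, named here by their sugar: high glucose with 25 mM, low glucose with 5 mM, and galactose with 10 mM of it. All media held 1 mM pyruvate, 10% fetal bovine serum and 1% penicillin/streptomycin. PolyA RNA was sequenced from 4 libraries per medium, 12 in all, and the labels do not say whether these came from separate cultures. The series' design text describes freshly isolated or cultured muscle stem cells instead, and the sample labels were followed. The deposited table holds 1 pooled value per medium for each locus, in FPKM (mapped fragments scaled to transcript length and to library size), and the result of the test the authors ran between each pair of media. No value per library, spread or sequencing depth can be given. A locus is called here where the authors' tool ran its test and the deposited q, its p-value adjusted for multiple testing, was below 0.05. The comparisons of high glucose with low glucose and with galactose share the high glucose libraries.

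All 10 myoblast markers listed for this purpose were at 1 FPKM or more in all media, and they summed to 928 FPKM in high glucose, 617 FPKM in low glucose and 511 FPKM in galactose. Of these 10 markers, 9 were called lower in low glucose and 10 in galactose than in high glucose. Over all tested loci, 18.2% and 24.8% were called lower in these comparisons. Calcrl and Ramp2 are best known from the endothelium, the lining of blood vessels. Of 15 endothelial markers, 2 reached 1 FPKM (Flt1 and Egfl7) in each medium and the list summed to between 4.45 and 5.15 FPKM. Robo4, Cldn5, Sox17, Erg and Emcn were listed at 0 in all media, and Pecam1, Cdh5 and Tek stayed below 0.1 FPKM. Of 11 smooth muscle and pericyte markers 7 reached 1 FPKM. The list summed to 2191, 1766 and 1610 FPKM in high glucose, low glucose and galactose. Acta2 was the highest at 1113, 844 and 824 FPKM, while Myh11 was at or below 0.0147 FPKM. Des is on this list and on the myoblast list, so its 456, 308 and 268 FPKM count in both sums. The 6 leukocyte markers with a locus of their own summed to at most 0.109 FPKM. Of 4 lymphatic endothelial markers found, Pdpn was at 142, 208 and 192 FPKM, Prox1 at 0.201 FPKM or less and Lyve1 at 0.

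Of the 6 members, 5 were tested and 3 were called higher in low glucose than in high glucose, none lower. Across all 14699 loci tested in that comparison, 18.3% were called higher and 18.2% lower. From high glucose to galactose 2 members were called higher and none lower, against 26.5% and 24.8% of 14812 loci. From low glucose to galactose 2 were called higher and 1 lower, against 17.4% and 16.0% of 14495 loci. As the members were chosen with these comparisons known, nothing is read from their counts. Adm2 accounted for the large changes, Calcrl changed in small steps in the same order of media, Ramp3 peaked in low glucose, and Adm, Ramp1 and the locus of Ramp2 were called in no comparison.

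**Figure D1:**
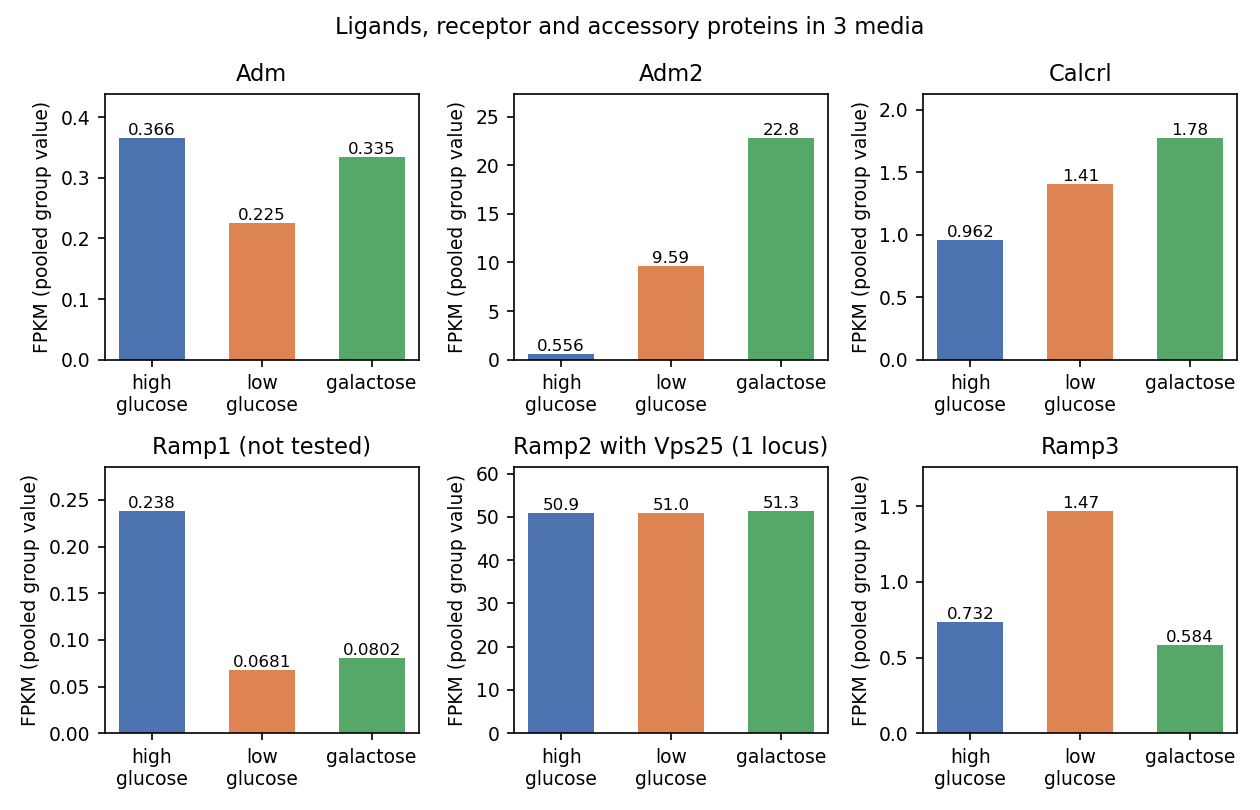
Bars give the authors' pooled value of each member in FPKM (y axis, starting at 0, with its own range in each panel) in the 3 media (x axis); no spread between libraries is available. Adm2 climbs from 0.556 to 22.8 FPKM, Ramp3 is highest in low glucose at 1.47 FPKM, and the locus shared by Ramp2 and Vps25 stays near 51 FPKM.

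Adm2, the intermedin gene, was close to silent in high glucose and the most abundant of the singly measured members in both other media. Its pooled value was 0.556 FPKM in high glucose, 9.59 FPKM in low glucose and 22.8 FPKM in galactose. In terms of rank, the share of all loci with a lower value than Adm2 went from 47.8% with high glucose to 69.4% with low glucose and 81.3% with galactose. The authors' deposited table puts the log2 rise at 4.11 for low against high glucose (17.2-fold), 5.36 for galactose against high glucose (41.0-fold) and 1.25 for galactose against low glucose (2.38-fold), each called higher. The step to low glucose thus made up 76.7% of the whole log2 change to galactose. Loci were ranked by their rise if tested with at least 1 FPKM in either group and a finite fold change. Adm2 had the rank 1 of 13110 from high to low glucose and 9 of 13186 from high glucose to galactose. It met that minimum only in low glucose and galactose, and it was chosen with these values known. The ranks are thus a description and not evidence. The folds of Adm2 rest on a low starting value, and with 1 FPKM added to each value the log2 changes were 2.77 and 3.94.

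The Adm2 locus of the authors' table (XLOC_007774) lies on chromosome 15 from 89322972 to 89324730 (mm10), and it starts 252 bases later than the RefSeq gene. Its longest coding transcript in GENCODE M21 has 1298 bases in 3 exons, and no other annotated gene overlaps the locus. The 250 bases before the RefSeq start are shown because this is the member with the largest change. They were searched on both strands for the letters TGATGNAA (the core of the element bound by C/EBP and ATF4), ACGTG and GCGTG (cores of the element bound by the hypoxia-inducible factor HIF), TGACGTCA and its half-site TGACG (the cyclic AMP response element) and CACGTG, an E-box that contains ACGTG. None of these letters occurred in the window, so the sequence carries no capitals (RefSeq, GRCm38.p6, chr15:89322470-89322719, plus strand).
Adm2: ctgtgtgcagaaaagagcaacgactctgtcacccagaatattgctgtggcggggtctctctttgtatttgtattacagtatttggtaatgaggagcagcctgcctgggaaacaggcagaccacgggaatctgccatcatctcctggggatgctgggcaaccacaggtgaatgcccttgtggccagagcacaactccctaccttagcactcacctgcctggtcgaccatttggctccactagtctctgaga

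Among all 32851 RefSeq promoter windows of this length, 3.45% held TGATGNAA, 16.6% ACGTG, 28.2% GCGTG, 1.55% TGACGTCA, 17.8% TGACG and 6.02% CACGTG. A match to such short letters is a description of the sequence and not a binding site, and a missing match says only that the letters are not in this window.

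The loci around Adm2 did not share its change. Within 60 kb, 7 other loci were listed and 5 of them tested, with log2 fold changes from -0.30 to 0.26 between high and low glucose and from -0.51 to 0.38 between high glucose and galactose. From high to low glucose, 3 of the 5 were called lower and none higher, and from high glucose to galactose 3 were called lower and 1 higher. Sbf1, which encodes a pseudophosphatase, was the nearest of these together with Ppp6r2, whose shared interval ends 7568 bases before Adm2. Sbf1 stood at 48.1, 41.2 and 42.5 FPKM in high glucose, low glucose and galactose. On the other side Miox, 9743 bases away, was not tested and stayed at or below 0.00876 FPKM.

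**Figure D2:**
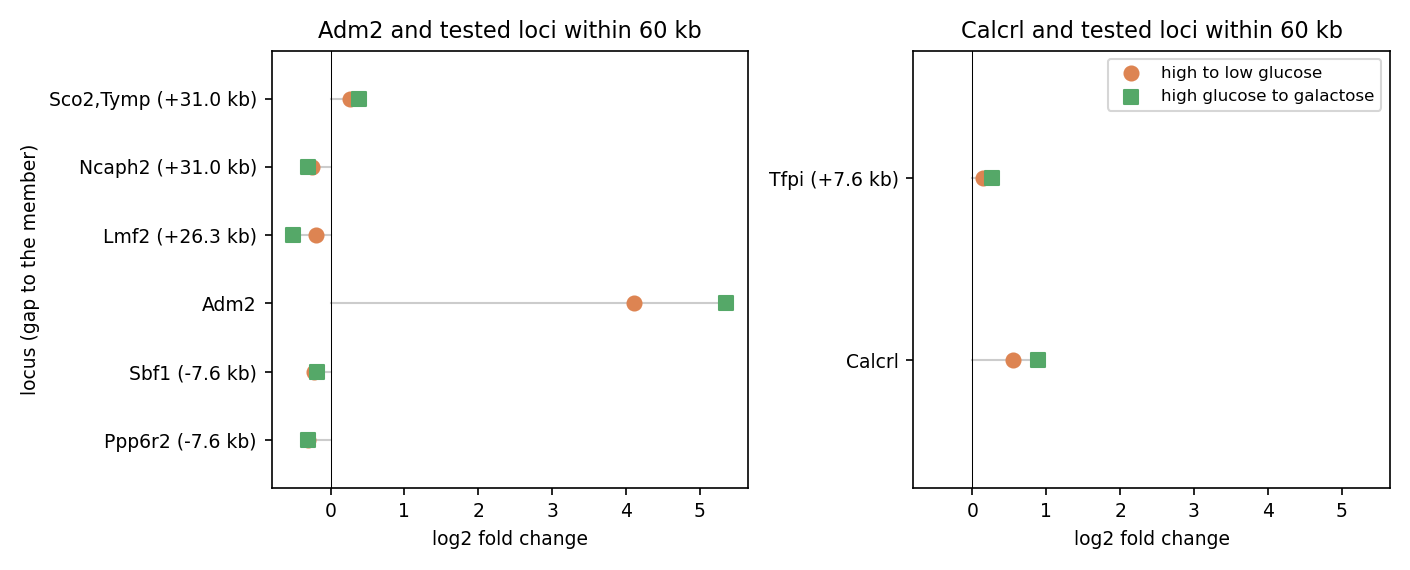
Each row is a tested locus within 60 kb of Adm2 (left) or Calcrl (right), ordered along the genome, with the gap to the member in kilobases; the x axis is the deposited log2 fold change from high to low glucose (circles) and from high glucose to galactose (squares). The Adm2 points at 4.11 and 5.36 stand apart from its neighbours, all of which lie between -0.51 and 0.38.

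By the distance between pairs of log2 fold changes from high glucose, over 3 media and 9869 candidate loci, the genes nearest to Adm2 were Trib3, Cth, Fgf21 and Cdsn, at distances of 1.36, 1.38, 1.44 and 1.65. None lay within 0.1 of it, since few genes changed as much. Trib3 encodes a pseudokinase, Cth the cystathionine gamma-lyase of cysteine synthesis, Fgf21 a secreted growth factor and Cdsn the adhesion protein corneodesmosin. Fgf21 was low, at 0.0925, 0.690 and 2.22 FPKM in high glucose, low glucose and galactose. Trib3, Cth and Fgf21 are on the list of 35 genes of the ATF4 and amino acid response described further down. Cdsn is not on that list and went from 0.731 to 4.07 and 35.2 FPKM in high glucose, low glucose and galactose.

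Adm, the adrenomedullin gene, was low in all media and called in none of the comparisons. The pooled value was 0.366 FPKM in high glucose, 0.225 FPKM in low glucose and 0.335 FPKM in galactose. Low glucose was thus the lowest of the 3, and high glucose and galactose lay close together. In the authors' deposited table the log2 fold change was -0.70 for low against high glucose (q = 0.0559), -0.13 for galactose against high glucose (q = 0.758) and 0.57 for galactose against low glucose (q = 0.122). The lower value in low glucose also missed the threshold when the p-values were adjusted within that comparison alone (q = 0.0616). At these levels, with no counts at hand, a change of this size could not be told from none. The ligand pair therefore shifted in its balance: on the FPKM scale, which is per length, Adm2 was 1.52 times as high as Adm in high glucose, 42.6 times in low glucose and 68.1 times in galactose.

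The Adm locus (XLOC_020726) lies on chromosome 7 from 110627669 to 110629819 (mm10), with a longest coding transcript of 1390 bases in 4 exons. GENCODE M21 places an antisense gene, Gm28863, over it on the minus strand (110626281 to 110639358), for which the authors' table holds no symbol. No label says that strand was used in counting, so reads of the pair cannot be told apart. Adm is a textbook HIF target, and its upstream bases are shown for the HIF core letters, in capitals (RefSeq, GRCm38.p6, chr7:110627407-110627656, plus strand). GCGTG occurred 2 times on the opposite strand, written there as CACGC, at positions -90 to -86 and -54 to -50 from the start. The other searched letters did not occur.
Adm: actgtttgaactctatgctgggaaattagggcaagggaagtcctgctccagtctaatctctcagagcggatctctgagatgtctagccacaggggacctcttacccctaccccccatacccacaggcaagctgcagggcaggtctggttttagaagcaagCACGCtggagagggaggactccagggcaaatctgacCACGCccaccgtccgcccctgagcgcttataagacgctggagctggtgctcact

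The genes whose pattern lay nearest to Adm were Cyb5, Fam214b, Nyap1 and Fbxo36, at distances of 0.0227, 0.0295, 0.0574 and 0.0769. Within a distance of 0.1 there were 8 candidates. Cyb5, which encodes cytochrome b5, went from 34.6 to 21.6 and 31.6 FPKM across high glucose, low glucose and galactose, far above the level of Adm.

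Calcrl, the receptor gene, was expressed at a low level and was higher in both other media than in high glucose. Its pooled value was 0.962 FPKM in high glucose, 1.41 FPKM in low glucose and 1.78 FPKM in galactose. In the authors' deposited table low against high glucose had a log2 fold change of 0.55 (1.46-fold), galactose against high glucose 0.89 (1.85-fold) and galactose against low glucose 0.34 (1.26-fold, q = 0.00215), all called higher. The order of the media was the same as for Adm2, but the span was a 1.85-fold change and not a 41.0-fold one. With 1 FPKM added to each value these log2 changes were 0.29, 0.50 and 0.21. Adm2 stood at 0.578 times the level of Calcrl in high glucose, 6.82 times in low glucose and 12.8 times in galactose, on the FPKM scale. Calcrl ranked 582 of 13186 loci by its rise to galactose, a description only, as the members were chosen with these values known. In bulk RNA, more transcript in the same cells and more cells with the transcript cannot be told apart.

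The Calcrl locus (XLOC_013334) spans chromosome 2 from 84330627 to 84425309 (mm10, minus strand), and its longest coding transcript has 4882 bases in 16 exons. No other annotated gene overlaps it. Of the 5 members with an entry in the RefSeq promoter table, Calcrl was the 1 whose 250 upstream bases held the C/EBP-ATF core TGATGNAA. The match, TGATGTAA, lies 75 to 68 bases before the start used in that table and inside the first exon of a longer annotated transcript. It is shown in capitals within 30 bases (RefSeq, GRCm38.p6, chr2:84425323-84425352, minus strand).
Calcrl: gcggggcggggTGATGTAAcaggaagctgt

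For comparison, 10 of the 30 genes of the ATF4 list that have a promoter entry held the letters TGATGNAA (33.3%). None of 23 HIF targets and none of 17 CREB targets on the lists used here held them. Over all promoter windows the share was 3.45%, so lists this short can easily hold none. GCGTG, shown above for Adm, was common on each list: 18 of the 30 ATF4 genes, 16 of the 23 HIF targets and 10 of the 17 CREB targets. The other searched letters also occurred on each list, some in unequal shares. TGACG was in 15 of the 17 CREB targets, 11 of the 30 ATF4 genes and 7 of the 23 HIF targets. ACGTG was in 15 of the 23 HIF targets, 10 of the 30 ATF4 genes and 8 of the 17 CREB targets. TGACGTCA was in 4 of the 17 CREB targets and in 1 gene on each of the other lists. Whether TGATGTAA has a role at Calcrl was not tested.

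Tfpi, the tissue factor pathway inhibitor gene, begins 7551 bases beyond the Calcrl locus and was the only neighbour within 60 kb. It stood at 11.1, 12.2 and 13.3 FPKM in high glucose, low glucose and galactose, a log2 change of 0.14 to low glucose, not called, and of 0.26 to galactose, called higher. Many genes shared the pattern of Calcrl: 38 candidates lay within a distance of 0.1. The nearest were Gtf2h1, Llph, Wdr67 and Eif1ad, at 0.0185, 0.0219, 0.0242 and 0.0259. Gtf2h1, a subunit gene of the general transcription factor TFIIH, went from 16.5 to 23.9 and 30.2 FPKM.

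Ramp3, whose protein makes the receptor respond to both adrenomedullin and intermedin, moved in another way, up in low glucose only. Its pooled value was 0.732 FPKM in high glucose, 1.47 FPKM in low glucose and 0.584 FPKM in galactose. In the authors' deposited table the log2 fold change was 1.00 from high to low glucose (called higher) and -1.33 from low glucose to galactose (2.51-fold, called lower). High glucose and galactose differed by a log2 change of -0.32 that was not called (q = 0.247). Calcrl was 1.31 times as high as Ramp3 in high glucose, 0.959 times in low glucose and 3.04 times in galactose, on the FPKM scale. All of these levels are near 1 FPKM, and adding 1 FPKM to each value gave log2 changes of 0.51 and -0.64 for the 2 called comparisons.

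The interval given for Ramp3 (XLOC_002761) runs on chromosome 11 from 6650148 to 6677475 (mm10) and begins 8358 bases before the RefSeq gene. It covers the pseudogene Gm11978 on the minus strand (6650148 to 6660233), which has a row of its own in the table, at 0.00670 FPKM or less. Of 4 tested neighbours within 60 kb, Tbrg4 was called higher in both low glucose and galactose than in high glucose (45.7, 57.5 and 65.2 FPKM) and Nacad lower (0.680, 0.306 and 0.248 FPKM), so neither had the peak in low glucose. The small nucleolar RNA Snora5c did peak there, at 1.31, 10.7 and 4.67 FPKM, but was not called, and it was singled out after its values were seen. The upstream bases of Ramp3 are shown because they hold GCGTG, as those of Adm do. These letters are in 28.2% of all promoter windows, and whether they have a role here was not tested. The letters occurred once on each strand, at -219 to -215 (as CACGC) and -65 to -61 (RefSeq, GRCm38.p6, chr11:6658283-6658505, plus strand).
Ramp3: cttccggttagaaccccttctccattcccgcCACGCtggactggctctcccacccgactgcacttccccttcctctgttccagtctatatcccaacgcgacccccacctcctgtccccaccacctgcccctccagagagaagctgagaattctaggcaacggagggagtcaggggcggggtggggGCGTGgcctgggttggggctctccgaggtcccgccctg

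The gene nearest to Ramp3 in pattern was Prr9, at a distance of 0.0740, and it was the only candidate within 0.1. Prr9 went from 4.83 to 10.2 and 3.83 FPKM. Hist1h4j, Angptl4 and Lor followed at 0.311, 0.337 and 0.396. Angptl4 encodes a secreted inhibitor of lipoprotein lipase and stood at 27.3, 46.7 and 25.9 FPKM. Lor encodes loricrin, a protein of the outer skin, and stood at 3.20, 6.09 and 1.95 FPKM.

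Ramp1, whose protein turns the receptor into one for calcitonin gene-related peptide, had too few reads for the authors' test in all comparisons. It was listed at 0.238 FPKM in high glucose, 0.0681 FPKM in low glucose and 0.0802 FPKM in galactose. The value in high glucose was the highest of the 3, and with no test and no counts the difference cannot be weighed. Ramp1 lies on chromosome 1 from 91179822 to 91225196 (mm10), and its upstream window held none of the searched letters.

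Ramp2, the partner with which the receptor binds adrenomedullin best, could not be measured by itself. Its locus (XLOC_003401, chromosome 11 from 101246063 to 101259655, mm10) joins it with Vps25, a gene of the ESCRT-II complex that sorts membrane proteins, and GENCODE M21 annotates a Ramp2 transcript that runs on into Vps25. The joint value was 50.9 FPKM in high glucose, 51.0 FPKM in low glucose and 51.3 FPKM in galactose, and the authors' deposited table puts the log2 fold changes at 0.00, 0.01 and 0.01, none of them called (q = 0.995, 0.926 and 0.931). How much of it was Ramp2 is not known, and opposite changes of the paired genes would not show. When values were divided by the sum of each group, these log2 changes turned to -0.09, -0.16 and -0.07, so no direction can be given for the joint locus.

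**Figure D3:**
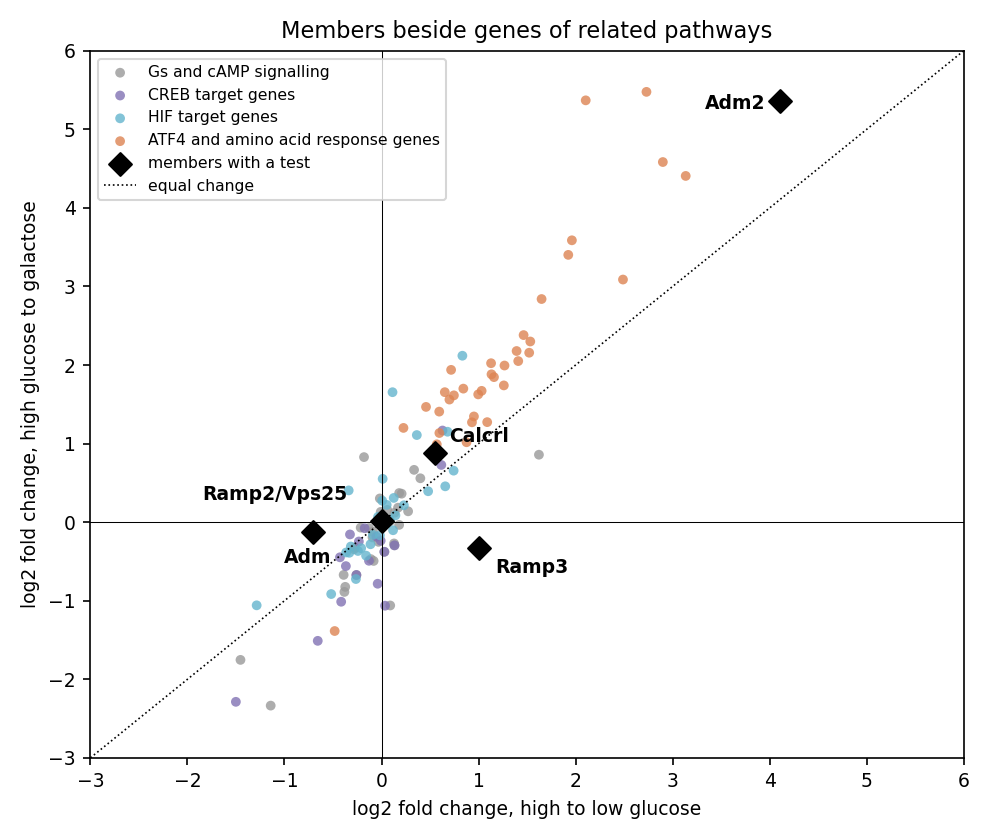
Each point is a gene tested in both comparisons, placed by the deposited log2 fold change from high to low glucose (x axis) and from high glucose to galactose (y axis), which share the high glucose libraries; black diamonds are the 5 tested members. Adm2 lies at 4.11 and 5.36 beside the upper end of the ATF4 list, Calcrl at 0.55 and 0.89 near the dotted line of equal change, and Ramp3 at 1.00 and -0.32 in the lower right.

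The rest of the calcitonin family was nearly silent. Iapp (amylin) was listed at 0 in all media, and Calcr, the calcitonin receptor gene, at 0.00153 FPKM or less. Calca, which encodes calcitonin and the alpha form of calcitonin gene-related peptide, was at 0.0285, 0.0305 and 0.1002 FPKM and was not tested. Calcb, the gene of the beta form, was at 0.357, 0.138 and 0.180 FPKM, called lower in low glucose and not called in galactose. Expressed at a higher level were Ackr3, found under its older symbol Cxcr7, a scavenger receptor that also takes up adrenomedullin, and Crcp, a component gene of the receptor complex that is also a subunit of RNA polymerase III. Ackr3 fell from 22.2 to 18.4 FPKM in low glucose and 11.5 FPKM in galactose, called lower in each comparison. Crcp was called higher than in high glucose in both other media, at 24.1, 28.7 and 29.4 FPKM. Of 14 listed class B peptide receptors, the class of Calcrl, none was tested between high and low glucose and Vipr2 alone in the galactose comparisons. It was singled out after its values were seen, at 0.0329, 0.0440 and 0.820 FPKM, and it was not called (q = 0.294 from high glucose to galactose).

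The enzymes that make and clear such peptides showed small changes in both directions. The amidating enzyme gene Pam, which gives adrenomedullin and intermedin their active C-terminal end, was called in no comparison, at 33.4, 34.1 and 35.0 FPKM. Furin, a protease gene of prohormone cutting, stood at 58.03, 53.13 and 60.04 FPKM and was called from low glucose to galactose only. Low glucose had 3 of the 15 tested members of this list called higher and 5 lower, and galactose 4 higher and 6 lower, with medians of -0.09 and 0.05 on the log2 scale. The higher calls in both media include Ece2, which shares a locus with Psmd2 (117, 132 and 136 FPKM) and has no value of its own. Across all tested loci these medians were 0.01 and 0.01, and the list counts here and further down are to be read against the shares called over all loci, 18.3% higher and 18.2% lower in low glucose and 26.5% and 24.8% in galactose. Anpep, an aminopeptidase gene, went from 22.7 to 27.6 and 50.8 FPKM. Lnpep, another aminopeptidase gene, fell from 10.2 to 8.38 and 7.14 FPKM, Ece1, which encodes the endothelin-converting enzyme, from 31.48 to 27.92 and 18.98 FPKM, and the carboxypeptidase gene Cpd stood at 16.7, 15.3 and 11.5 FPKM, called lower in galactose only.

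Downstream of the receptor, 16 of 33 tested genes of Gs and cyclic AMP signalling were called lower in galactose and 8 higher, with a median log2 change of -0.12. Over all tested loci 24.8% were called lower and 26.5% higher, so the higher calls were near the background. Calls in low glucose were even, 8 higher and 8 lower, with a median of -0.02. Gnas, the gene of the Gs alpha subunit, was called in no comparison, at 877, 872 and 960 FPKM. The adenylyl cyclase genes Adcy7 and Adcy6 fell, Adcy7 from 102 to 78.5 and 57.5 FPKM and Adcy6 from 30.9 to 23.5 and 19.4 FPKM. The other tested cyclase genes differed. Adcy9 was called in no comparison, at 21.0, 21.9 and 23.4 FPKM. Adcy8 was called higher in both other media than in high glucose, at 0.152, 0.467 and 0.275 FPKM. Adcy3 was called lower in galactose only, at 4.38, 3.60 and 3.45 FPKM. Inhibitors of protein kinase A were lower in galactose as well: Pkia stood at 15.2, 16.2 and 7.31 FPKM and Pkig at 103, 78.7 and 55.4 FPKM. Rapgef3, a cyclic AMP sensor gene outside the kinase branch, stood at 0.632, 0.558 and 1.12 FPKM and was called higher in galactose. Pde8a, which encodes a phosphodiesterase that breaks down cyclic AMP, rose from 5.27 to 6.96 and 7.76 FPKM.

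Genes of receptor desensitisation and trafficking had 2 of 16 tested members called higher and 4 lower in low glucose, and 4 higher and 3 lower in galactose. The higher calls in galactose include Hgs, which shares a locus with Ccdc137. Over all tested loci, low glucose had 18.3% called higher and 18.2% lower, and galactose 26.5% higher and 24.8% lower, so with this few genes nothing sets the list apart. Their median log2 changes were 0.09 and 0.09. The arrestin gene Arrb1 fell from 4.36 to 3.71 and 2.40 FPKM, and the receptor kinase gene Grk5 from 1.74 to 1.39 and 1.16 FPKM. Slc9a3r1, whose product is a scaffold for Ramp3, fell from 21.45 to 17.15 and 16.02 FPKM. Rab5a, a gene of early endosomes, rose from 13.61 to 15.97 and 17.69 FPKM.

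Of 18 tested targets of CREB, the transcription factor that cyclic AMP activates, 13 were called lower in galactose and 2 higher, against 24.8% lower and 26.5% higher over all tested loci. In low glucose 8 were called lower, 2 higher and 8 in neither direction, against 18.2% lower and 18.3% higher. The medians were -0.15 in low glucose and -0.41 in galactose on the log2 scale. Rgs2, a regulator of G protein signalling, fell from 1.10 to 0.390 and 0.226 FPKM and the immediate early gene Fos from 2.22 to 1.41 and 0.780 FPKM. Nr4a2, an orphan nuclear receptor gene, stood at 18.6, 19.1 and 8.91 FPKM and was called lower in galactose only. Areg, the gene of the growth factor amphiregulin, rose instead, from 11.5 to 17.7 and 25.8 FPKM.

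Both ligand genes are known as stress-responsive, Adm through HIF and Adm2 through ATF4. In the HIF list, calls went in both directions. In low glucose 7 of 29 tested members were called higher and 8 lower, against 18.3% and 18.2% of all tested loci. In galactose 13 were called higher and 10 lower, against 26.5% and 24.8%. Both galactose counts were above these shares. The list medians in low glucose and galactose were 0.01 and 0.07 on the log2 scale. Ero1l, an oxidase gene of the endoplasmic reticulum, rose from 7.98 to 14.2 and 34.6 FPKM, and Vegfa, the vascular growth factor gene, from 84.9 to 136 and 189 FPKM. Ndrg1, a stress-induced gene, was at 29.1, 31.5 and 91.7 FPKM and called higher in galactose only. The hexokinase gene Hk2 rose from 21.9 to 28.2 and 47.3 FPKM. Pfkfb3, a regulator of glycolysis, was called higher in both other media than in high glucose, at 2.69, 4.50 and 4.23 FPKM. Pdk1 and Bnip3, which are classical HIF targets, were called lower in both: Pdk1 stood at 4.06, 3.43 and 3.15 FPKM and Bnip3 at 4.05, 3.14 and 3.10 FPKM. Pdk1 and Bnip3 are named in addition to the rule, after their values were seen.

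Over all tested loci, 18.3% were called higher in low glucose, and 26.5% higher and 24.8% lower in galactose. The ATF4 list had 34 of 35 tested members called higher in low glucose and 34 higher and 1 lower in galactose. Its median log2 change was 1.13 for low against high glucose, 1.85 for galactose against high glucose and 0.79 for galactose against low glucose. The list was written with this direction known, so the count is not independent evidence of it. Adm2 is no member of the list, and its log2 change to low glucose, 4.11, was above that of every gene on it, the highest being Trib3 at 3.13. In galactose its 5.36 lay below Cth at 5.48 and Slc7a3, an amino acid transporter gene, at 5.37. The fold of Slc7a3 rests on a low starting value too, 0.0954 FPKM in high glucose against 3.94 FPKM in galactose. The exception of the list was Cbs, an enzyme gene of homocysteine use, at 0.445, 0.318 and 0.170 FPKM and called lower in galactose. Atf4 itself rose from 294 to 437 and 585 FPKM.

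**Figure D4:**
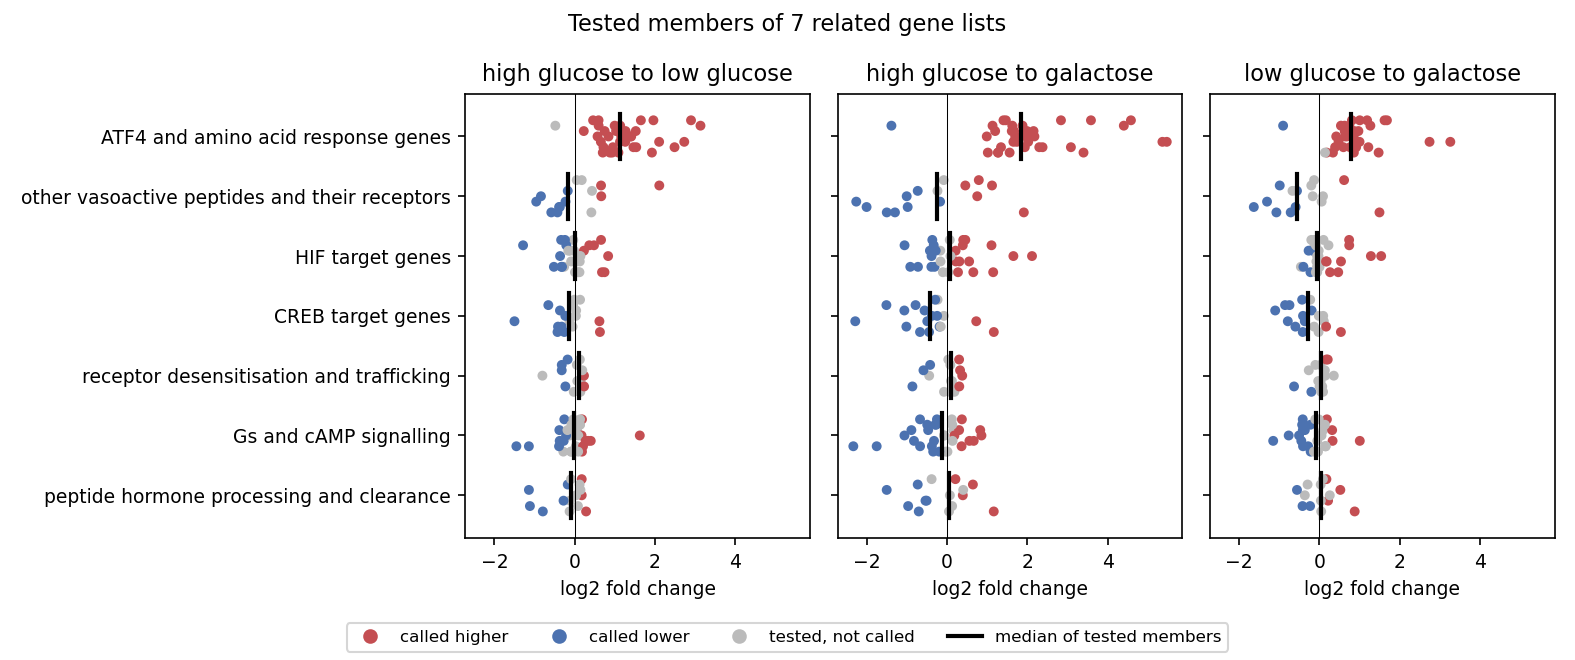
The 3 panels show the comparisons, with the deposited log2 fold change along the x axis and the 7 lists along the y axis; points are tested genes (red called higher, blue called lower, grey not called) and black bars mark list medians. The ATF4 bars stand at 1.13, 1.85 and 0.79, while those of the other lists stay between -0.56 and 0.09.

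Other vasoactive peptide systems, described for scale, had 3 of 15 tested members called higher and 8 lower in low glucose. Over all tested loci these shares were 18.3% and 18.2%. In galactose 5 were called higher and 8 lower, against 26.5% and 24.8%. The list medians in low glucose and galactose were -0.17 and -0.24 on the log2 scale. Bdkrb1, a bradykinin receptor gene, fell from 5.13 to 2.64 and 1.07 FPKM, and the ligand gene Apln (apelin) from 5.89 to 4.55 and 1.47 FPKM. Ptgis, which makes the vasodilator prostacyclin, fell from 44.89 to 29.96 and 18.26 FPKM. The natriuretic peptide gene Nppb stood at 1.33, 1.77 and 5.01 FPKM, called higher in galactose. Npy1r, a neuropeptide Y receptor gene, was at 0.287, 1.24 and 0.625 FPKM, highest in low glucose as Ramp3 was. In galactose Adm2, at 22.8 FPKM, was above all peptide ligand genes of this list.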

How the data were processed

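The members and gene lists were chosen with earlier results of these data known. PolyA RNA libraries (NEBNext Ultra kit, per the labels' protocols) were processed by the authors on build mm10, with TopHat2 (2.0.10), Cufflinks (2.2.0) and a release of Cuffdiff not given in the sources used here, per the submitters' processing notes. The settings and the normalization between libraries are not given there. The deposited table holds, per the file headers, FPKM values (1 pooled value per group), the log2 fold change of each pair of groups with no pseudocount, a test score (not used), and the authors' p-value and q-value. Depth is unknown. The deposited q-value was checked by recomputing the Benjamini-Hochberg adjustment over all 44006 tests of the 3 comparisons, and all were within 1e-04. The lowest q, 0.000239, is shared by 9204 tests; members called with no q printed have it.

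No test was rerun, since no values per library were used here. Of 263 listed symbols 262 were found, 5 under an older RefSeq symbol. Counts and medians cover loci whose test ran, in 9 pathway and 5 marker lists, with loci shared by several genes included. The rule for named genes takes all members, in each list the called genes with the 4 largest changes to galactose and the 2 largest to low glucose with at least 1 FPKM in either group, the other family genes, and the 4 genes nearest each member in pattern (not for the joint Ramp2 locus). Genes central to a pathway (Gnas, Pam, Furin, Atf4, Cbs) were named in addition, after their values were seen. The same holds for Adcy3, Adcy8 and Adcy9 and for the shared loci of Ece2 and Hgs. Of the rule's marker genes some are given in counts only. Nearness is the Euclidean distance over the log2 fold changes from high glucose, among loci with 1 symbol, tested in all comparisons, with at least 1 FPKM. Sequences come from RefSeq (GRCm38.p6, the assembly of mm10). Start positions in the table count from 0 and were raised by 1. Counting, adjustment and nearness were tested on simulated data. Python 3.11.15, numpy 2.4.6, pandas 2.3.3, scipy 1.17.1 and matplotlib 3.10.9 were used.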

Additional observations from a re-analysis of the deposited data

How the results depend on the processing

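No paired analysis was possible because the deposited table has 1 pooled value per group and no column carries a replicate number; for the same reason no library could be left out in turn. The member calls were the same in number under q below 0.01, within-comparison adjustment, a minimum of 1 FPKM, single-symbol loci and the row with the lowest sum. With an absolute log2 change of at least 1 in addition, 2 members were called between high and low glucose, 1 between high glucose and galactose and 2 between low glucose and galactose. Over the pathway lists 100, 124 and 93 loci were called in these comparisons, and from 86 to 100, 111 to 126 and 81 to 93 under the alternatives with the main setting included. Of 72 recomputed log2 changes of members, 19 of values that were not called moved by over 0.1 or changed sign, and no called value changed sign. Adding 1 FPKM shrank the called log2 changes of Calcrl and Ramp3 by over 1.5 times, and those of Adm2 by less. Dividing by the group sums lowered all log2 changes by 0.09, 0.17 and 0.08. At a minimum of 5 FPKM, 13 of the 16 genes nearest in pattern were kept. The 5 motif matches became 7 when the 50 bases after the start were included. Low levels and unknown depth limit Adm, Ramp1, Ramp3 and Calcrl.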
